A study of Mus musculus with 6 samples.

Results

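The peaks described here lie around 10 genes of bone morphogenetic protein (BMP) signalling in mouse osteoblasts: the ligands Bmp2, Bmp4, Bmp6 and Bmp7, the receptors Bmpr1a, Bmpr2 and Acvr1, the signal transducer Smad1, the inhibitory Smad gene Smad6 and the secreted antagonist Grem1. The genes were taken as a named list, 10 of the 49943 RefSeq genes with a place on GRCm38. Peaks that shared at least 1 bp, in whichever of the 6 libraries they were called, were joined into 1 region, and a region belonged to a gene if it overlapped the gene's span extended by 50 kb on each side. This gave 101 regions of 89410 in all, 42 of them in the gene spans and 59 in the flanks. Of the 101, 23 lay in the span of another protein-coding gene. All libraries came from an immortalized mouse osteoblast line whose Fam20c gene, which encodes a Golgi kinase for secreted proteins, is floxed. OB Fam20c f/f was that line itself, and OB Fam20c KO was made from it with a lentivirus carrying Cre recombinase, so both groups share the floxed background and differ in the virus as well as in Fam20c. Whether the KO line is 1 clone, and whether the f/f cells received a control virus, are not given in the sources used here. ATAC-seq, in which the Tn5 transposase tags accessible DNA, was done on 50000 cells per library with 3 libraries per group, and the question was which chromatin became more or less accessible without Fam20c.

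BMPs are dimeric ligands of the TGF-β superfamily that bring type I receptors such as BMPR1A and ACVR1 together with type II receptors such as BMPR2. The type I receptor then phosphorylates SMAD1 and its relatives, which enter the nucleus with SMAD4 and act on target genes. In bone this pathway drives mesenchymal cells towards osteoblasts, and it is held back outside the cell by antagonists such as GREM1 and inside it by SMAD6, whose gene is itself a BMP target.

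The deposited lists held 62781 to 74797 peaks in 5 libraries and 32958 in KO replicate 3, which stood apart from the others. At the 10 genes, f/f replicates 1, 2 and 3 had a peak in 73, 75 and 81 of the 101 regions, and KO replicates 1, 2 and 3 in 65, 73 and 37. The tests were therefore also run without it. A start-site region, meaning one that overlaps the 250 bases before or the 50 bases after an annotated start, made up 29.5% of the regions in KO replicate 3 and 14.5% to 17.0% in each of the other libraries. Of 9 osteoblast marker genes, 5 to 6 had a peak within 1 kb per library, with Runx2, Sp7, Col1a1, Col1a2 and Spp1 open in all 6 and Bglap, Ibsp and Dmp1 in none. The macrophage and osteoclast list had 2 to 3 of 6 genes open, of which Spi1 and Cd68 in every library, and the endothelial, epithelial, muscle, fat and cartilage lists had 0 to 2 of 4 each. The part of other cells in the results was not tested. At Fam20c itself 3 regions were found, with 1 or 2 in each library of both groups, but peak calls do not test whether the floxed part was deleted. In such bulk libraries, fewer cells with an open region and less access per cell cannot be told apart.

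The authors' values for a peak depend on the depth of its library, so they were compared as ranks. The list standing of a peak is its percentile within its own list, with 100 for the strongest, by the −log10 q-value or by the fold over the local background. The shared-region standing is the percentile among only the 29849 regions with a peak in every library, and it is the scale of the tests, which were moderated linear models in limma over all of these regions with Benjamini-Hochberg adjustment. A higher standing means stronger relative to the other shared regions of that library, not a higher read number. Nothing says that the libraries came from separate cultures, so the p-values measure the spread between these libraries, which may be technical.

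**Figure D1:**
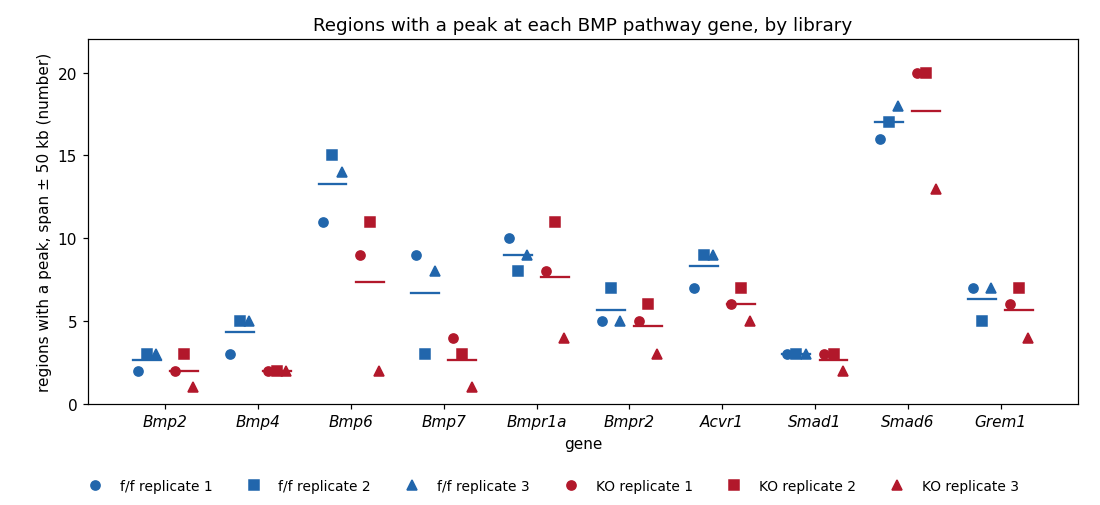
Number of regions with a peak (vertical axis) in the span ± 50 kb of each gene (horizontal axis), 1 point per library and a line at each group mean. KO replicate 3 has the lowest number at every gene, tied with the other KO libraries at Bmp4, which has 2 regions in every KO library and 3 to 5 in the f/f libraries.

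Across the 10 genes, 36 of the 101 regions (35.6%) had a peak in all 6 libraries, against 33.4% of all regions, and 18 (17.8%) had one in every library but KO replicate 3, against 19.2%. A further 6 regions were open in 3 of 3 f/f and 0 of 3 KO libraries, at Bmp4, Bmp6, Bmpr2 and Acvr1, and over all regions this pattern was seen in 3.75%. None of the 6 kept the pattern with equal numbers of peaks per library. No region of the 10 genes was open in 3 of 3 KO and 0 of 3 f/f libraries, a pattern seen in 0.179% of all regions. Without f/f replicate 1 or 2, the f/f-only regions numbered 10 and 11, against 6.13% and 6.09% of all regions, and without KO replicate 3 the KO-only regions numbered 4, against 2.93%. Among the shared regions, 10 of 36 had a changed standing by −log10 q, of which 5 were lower and 5 higher in KO. Over all shared regions 11.3% were lower and 12.6% higher, so that called regions were frequent in both directions across the genome. By fold, 0 of 36 passed in limma, against 0.630% of all shared regions called lower and 0.754% called higher, and 8 had an unadjusted p under 0.05, against 20.1% of all shared regions. All 10 regions called by −log10 q had the same direction by fold, as had 33 of the 36, and 6 of the 10 had an unadjusted p under 0.05 by fold. The number called by −log10 q was 6 without f/f replicate 1, 4 without f/f replicate 2, 4 without f/f replicate 3, 6 without KO replicate 2 and 16 without KO replicate 3. The share called over all regions also moved, to 18.3%, 14.8%, 13.6%, 14.9% and 22.5% in the same order, from 23.9%. On list standings in place of shared-region standings, all shared regions were lower in KO by a median of 5.72 points, and 0 of 36 passed, against 0.302% of all shared regions. An unadjusted p under 0.05 was found for 3 of the 36, against 12.4% of all. By that scale the adjusted p of the 10 regions was 0.234 or higher.

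Start sites were described first, because the same kind of place could be compared between genes. RefSeq promoter sequences, in the coordinates of GRCm38.p6, were matched to 8 of the 10 genes. For each gene the first listed start was taken, and any further start of the same gene was not used. The 250 bases before the start are shown for Acvr1, Bmpr2 and Smad6, the genes whose start-site regions were called higher in KO, and for Bmp6, at whose start no library had a peak. Capitals mark each CG dinucleotide, and each sequence is read 5′ to 3′ on the strand of its gene. They lie at chr2:58566829-58567078 on the minus strand (Acvr1), chr1:59764029-59764278 on the plus strand (Bmpr2), chr9:64022060-64022309 on the minus strand (Smad6) and chr13:38345466-38345715 on the plus strand (Bmp6).
Acvr1: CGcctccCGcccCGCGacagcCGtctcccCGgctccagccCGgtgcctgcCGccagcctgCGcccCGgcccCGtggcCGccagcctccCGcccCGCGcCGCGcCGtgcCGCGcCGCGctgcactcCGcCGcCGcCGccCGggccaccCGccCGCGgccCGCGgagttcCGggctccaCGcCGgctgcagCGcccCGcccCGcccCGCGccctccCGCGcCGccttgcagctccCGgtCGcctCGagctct
Bmpr2: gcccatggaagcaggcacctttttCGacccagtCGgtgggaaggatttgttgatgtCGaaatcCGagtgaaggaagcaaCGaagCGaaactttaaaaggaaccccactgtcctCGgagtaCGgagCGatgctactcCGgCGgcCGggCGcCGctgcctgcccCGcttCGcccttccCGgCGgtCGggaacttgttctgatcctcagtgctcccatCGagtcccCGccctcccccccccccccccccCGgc
Smad6: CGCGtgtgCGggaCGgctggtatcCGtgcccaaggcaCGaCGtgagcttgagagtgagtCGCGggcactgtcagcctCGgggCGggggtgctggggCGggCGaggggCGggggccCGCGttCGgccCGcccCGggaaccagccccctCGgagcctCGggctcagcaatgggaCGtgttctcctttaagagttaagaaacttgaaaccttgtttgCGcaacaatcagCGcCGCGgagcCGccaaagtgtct
Bmp6: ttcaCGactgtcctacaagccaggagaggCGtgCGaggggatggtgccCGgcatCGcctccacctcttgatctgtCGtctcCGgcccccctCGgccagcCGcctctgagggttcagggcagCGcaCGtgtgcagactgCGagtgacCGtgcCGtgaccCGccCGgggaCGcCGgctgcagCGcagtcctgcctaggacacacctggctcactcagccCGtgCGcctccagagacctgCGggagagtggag

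The Acvr1 promoter held 46 CG dinucleotides, more than 99.7% of the 32817 RefSeq promoters of that length, whose median was 6. The promoters of Bmpr1a, Smad6, Smad1 and Grem1 held 36, 27, 25 and 24, those of Bmpr2 and Bmp6 each held 22, and that of Bmp4 held 11. A high number did not go with a peak in every case, since Bmp6 had as many as Bmpr2 and no peak in any library. Over all promoters, 38.3% overlapped a shared region and 55.8% overlapped no peak. A GC-rich Smad element (GGCGCC, which reads the same on both strands) was present in the promoters of Bmpr1a, Bmpr2 and Grem1, with its first base 198, 105 and 78 bases before the start, and in 9.59% of all promoters. The Smad-binding element CAGAC, sought on both strands, was present at Bmp6, 119 bases before the start, at Grem1, 219 bases before it, and in 42.2% of all promoters. The AP-1 motif TGANTCA, the RUNX motif TGTGGT, the E-box CAGCTG and the TCF/LEF motif CTTTGA had no match in the 8 promoters, against 6.75%, 14%, 13% and 13.8% of all promoters. The matches at Grem1 do not overlap, and a match describes the sequence only.

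Of the shared regions, 7 lay at the start site of a listed gene itself, or at an end of the span for Bmp2. Of these, 6 had a higher mean standing by −log10 q in KO than in f/f. The median difference of the 7 was 14.7 points, and 3 were called higher and 0 lower. The other 29 shared regions had a median of −2.47, with 5 called lower and 2 higher. They include starts of other genes, such as the Txndc5 start described below, which was called lower. They may also include further starts of the listed genes. The values over all genes count a start of any gene, so the sets are not split alike. By that rule 12.9% of the 101 regions were start-site regions. Over all genes, the 9371 start-site regions had a median of 0.477, with 15.4% called higher and 9.12% lower, and the 20478 other shared regions had a median of −0.858, with 11.3% called higher and 12.3% lower. By fold, the difference was positive at 7 of the 7 start sites, with a median of 11.7 points against 4.72 for all start-site regions. Without KO replicate 3, whose list was richest in start sites, the median over the same 7 regions was 11.6 points by −log10 q and 2 were called higher. By fold it was then 6.33 points, with 6 of 7 positive, against 2.01 for all start-site regions. The region at an end of the Bmp7 span also had a peak in these 5 libraries, and with it the 8 regions had a median of 7.28 points by −log10 q, with 2 called higher and 1, that of Bmp7, lower. In that fit the 10073 start-site regions of all genes had a median of 0.516, with 14.8% called higher and 9.79% lower.

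Among the ligands, Bmp2, a strong inducer of osteoblast differentiation, had the fewest regions. Its numbers of regions with a peak were 2, 3 and 3 in the f/f libraries and 2, 3 and 1 in the KO libraries. The region at the low-coordinate end of its span, chr2:133551968-133553470, was its strongest and the only shared one. Its shared-region standing by −log10 q was 35.0, 53.6 and 46.0 in f/f and 60.6, 55.9 and 62.4 in KO. All KO values lay above all f/f values, by 14.7 points on average (SE 5.50), but the difference did not pass (adjusted p = 0.0837).

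Bmp4, a ligand of osteoblast progenitors, was the only gene of the 10 whose numbers of regions did not overlap between the groups. They were 3, 5 and 5 in f/f (4.33 ± 1.15, SD, n = 3) and 2, 2 and 2 in KO (exact permutation test, two-sided, p = 0.10, the smallest that 3 libraries against 3 allow). Over the 18960 protein-coding genes with a region, 12.8% had a lower number in every KO than in every f/f library, and 12.9% in KO replicates 1 and 2. The separation at Bmp4 was lost with equal numbers of peaks per library, where the mean difference was 0, and with an extension of 3 kb, where it was −1.0 (exact permutation p = 0.40). An f/f-only region 26.4 kb downstream of the start, chr14:46364048-46364547, had list standings of 40.8, 34.4 and 34.4 in the f/f libraries. The 3 other regions that KO lacked were weak and were seen in 1 or 2 f/f libraries, with list standings of 1.81 to 15.2. No library had a peak at the start site taken for Bmp4, at chr14:46390669. Of its 6 regions, 16.7% overlapped another annotated start, whose gene was not looked up. None of the 6 lay in the span of another protein-coding gene, and whether this is a further start of Bmp4 was not tested.

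The strongest Bmp4 region, chr14:46386569-46388414, lay in the gene 3.2 kb after the start. Its shared-region standing was 43.2, 45.9 and 43.5 in f/f and 58.5, 65.7 and 57.0 in KO, a gain of 16.2 points (SE 4.38, adjusted p = 0.0281, range over the alternatives 0.00369 to 0.969). All KO libraries stood above all f/f libraries. The adjusted p was 0.0645, 0.0629 and 0.0910 without f/f replicate 1, 2 or 3, and 0.0569 and 0.114 without KO replicate 1 or 2. A region 46.1 kb before the start, chr14:46436282-46437294, moved the other way. Its standing was 28.5, 24.0 and 23.4 in f/f and 12.2, 14.4 and 2.54 in KO, a difference of −15.6 points (SE 3.91, adjusted p = 0.0209, range 0.0120 to 0.429). KO replicate 3 was the lowest by far, and without it the difference was −10.4 points (adjusted p = 0.159). Leaving out f/f replicate 1, 2 or 3 gave an adjusted p of 0.0665, 0.0539 and 0.0553.

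Bmp6, the ligand that also sets hepcidin in the liver, had 18 regions over its long locus, the most of the ligands. Their numbers were 11, 15 and 14 in f/f (13.3 ± 2.08) and 9, 11 and 2 in KO (7.33 ± 4.73), and without KO replicate 3 the difference was −3.33 in place of −6.00. The f/f-only regions were chr13:38320376-38320684, 25.2 kb before the start, with list standings of 20.6, 21.6 and 27.9, and the intragenic chr13:38419514-38420171, with 27.7, 44.3 and 52.6. These lay low or near the middle of their lists. The region at the start of the neighbouring gene Txndc5, which encodes an endoplasmic reticulum disulfide isomerase, was the strongest of the locus (chr13:38527418-38529048). Its shared-region standing was 61.8, 78.0 and 79.6 in f/f and 51.7, 52.0 and 52.8 in KO, a difference of −21.0 points (SE 5.12, adjusted p = 0.0188, range 0.00175 to 0.367). The KO libraries lay close together and below all f/f libraries. Without f/f replicate 2, f/f replicate 3 or KO replicate 2, the adjusted p was 0.0751, 0.0857 and 0.0566, and without KO replicate 3 the difference was −13.6 points (adjusted p = 0.0178).

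A lower standing by −log10 q was frequent on the whole of chromosome 13, where Bmp6 lies. Outside the Bmp6 locus, the 972 shared regions of that chromosome had a median difference of −9.50 points and 39.4% were called lower, against 11.3% in the genome. Within 5 Mb of the locus the median was −10.9, 50.6% were called lower, and 8.68% of 357 regions were f/f-only. By fold, the median of the chromosome was −0.431 and 1.13% were called lower, and the Txndc5 region differed by −5.13 points (adjusted p = 0.739). The part of the chromosome in the differences at Bmp6 was not tested, and the DNA copy number of the lines was not analysed here.

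Bmp7, a ligand best known from kidney and bone, had 9, 3 and 8 regions with a peak in f/f and 4, 3 and 1 in KO. The f/f libraries disagreed among themselves, with f/f replicate 2 at the level of the KO libraries. Its only shared region lay 35.9 kb beyond the low end of the span, with standings of 11.1, 22.5 and 20.7 in f/f and 14.4, 11 and 8.69 in KO (difference −6.76, SE 3.75, adjusted p = 0.220). The strongest Bmp7 peak in the f/f libraries, at the high end of the span, was absent from KO replicate 3 and is described with the regions of 5 libraries.

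**Figure D2:**
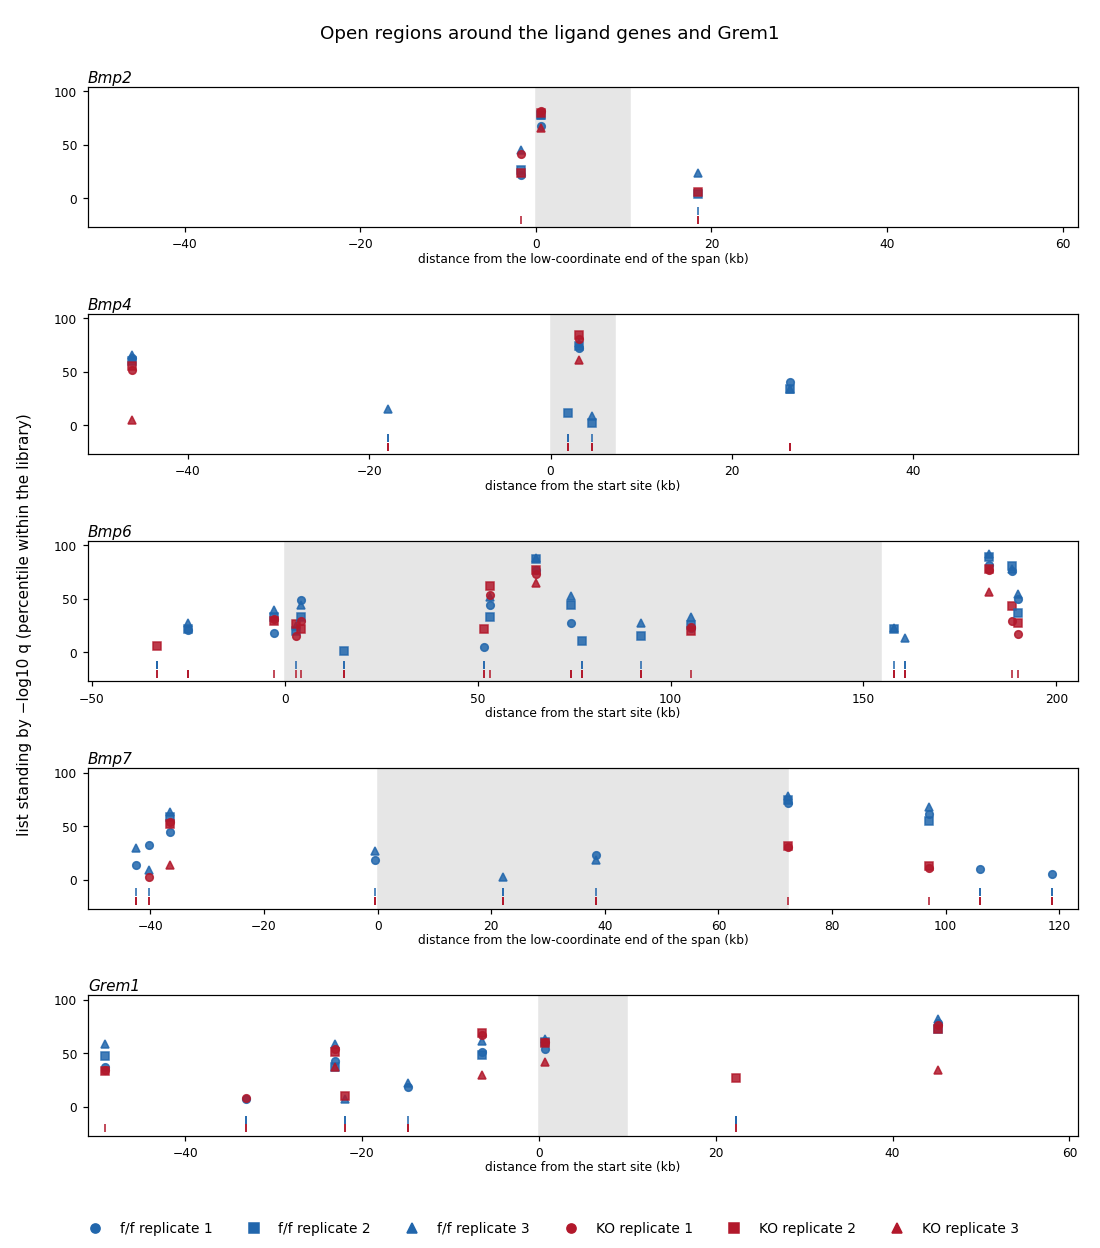
List standing by −log10 q (vertical axis, percentile) of each region against the distance in kb of its centre from the start site, or from the low-coordinate end of the span for Bmp2 and Bmp7 (horizontal axis). Grey marks the gene span, points are libraries, and ticks under 0 mark f/f (upper row) and KO (lower row) libraries without a peak, so that the strongest Bmp7 region at the high end of the span and the next one past it can be seen with f/f points at 55.1 to 78.1 and KO points at 10.5 to 31.4.

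Of the receptor genes, Acvr1, the type I receptor gene mutated in fibrodysplasia ossificans progressiva, held the largest difference by −log10 q among the 36 shared regions. Its start-site region, chr2:58565887-58567743, also lies in the annotated span of Upp2, a uridine phosphorylase gene. The authors' −log10 q was 31.8, 56.1 and 75.8 in f/f and 156, 190.3 and 24.2 in KO, and the fold over background 5.53, 6.07 and 5.80 in f/f and 9.15, 8.46 and 5.75 in KO. KO replicates 1 and 2 were thus above all f/f libraries in the values themselves, and KO replicate 3 only in its standing among the shared regions. The shared-region standing was 22.8, 42.2 and 32.1 in f/f (32.4 ± 9.70) and 68.8, 66.4 and 60.0 in KO (65.0 ± 4.53), a gain of 32.7 points (SE 5.77, adjusted p = 0.00497). This region passed with each library left out in turn, with an adjusted p of at most 0.0242, and it lost the call only on list standings (0.557). By fold, the standing was 10.8, 26.1 and 13.7 in f/f and 34.2, 27.0 and 46.7 in KO, which did not pass (adjusted p = 0.183).

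Inside the gene the direction was the opposite. An intragenic region 82.2 kb after the start, chr2:58484058-58485123, had a shared-region standing of 45.4, 59.0 and 54.4 in f/f and 20.5, 19.6 and 32.6 in KO, a difference of −28.7 points (SE 5.52, adjusted p = 0.00709). The groups did not overlap, and the call held with each library left out (adjusted p at most 0.0341) but not on list standings (0.321). By fold it had the lowest adjusted p of the 36 shared regions (−30.7 points, adjusted p = 0.0953). The Acvr1 span also held 2 f/f-only regions. The first, chr2:58505395-58506141, had list standings of 20.6, 23.7 and 36.8, and the other, chr2:58565165-58565623, lay 1.4 kb after the start with 34.3, 11.8 and 27.3. In all, Acvr1 had 7, 9 and 9 regions with a peak in f/f and 6, 7 and 5 in KO (exact permutation p = 0.200).

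Bmpr2, the type II receptor gene whose loss-of-function causes heritable pulmonary arterial hypertension, had 5, 7 and 5 regions in f/f and 5, 6 and 3 in KO. Its start-site region, chr1:59762383-59764237, ended 42 bases before the start, so that it overlapped the upstream part of the sequence printed above. The −log10 q was 68.0, 92.3 and 145 in f/f and 212, 259 and 53.8 in KO. Again KO replicates 1 and 2 exceeded every f/f library, and KO replicate 3 was the lowest of all in the value and the highest in standing. The shared-region standing was 51.9, 61.9 and 59.8 in f/f (57.9 ± 5.25) and 80.4, 77.9 and 85.2 in KO (81.2 ± 3.73), a gain of 23.3 points (SE 3.78, adjusted p = 0.00358). The call held with each library left out (adjusted p at most 0.0143), with a gain of 13.7 points without KO replicate 3, and was lost on list standings (0.413). A weaker region 0.4 kb after the start did not differ beyond its spread (−1.78, SE 4.19, adjusted p = 0.790). The strongest region of the locus, chr1:59912501-59914114 in Fam117b, was near the top of every list (87.3 to 97.0) and differed by 2.82 points (SE 2.21, adjusted p = 0.385). An f/f-only region lay 4.6 kb past the gene, chr1:59882716-59884327, with list standings of 26.0, 19.5 and 49.3.

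Bmpr1a, the type I receptor gene needed for BMP responses in bone, had no called region among its 4 shared ones. Its start-site region, chr14:34501770-34503484, stood at 21.3, 51.3 and 32.8 in f/f and 43.8, 39.3 and 44.1 in KO, with f/f replicate 1 lowest and f/f replicate 2 highest. The difference was 7.23 points (SE 7.13, adjusted p = 0.496). The strongest region, chr14:34362789-34364373, lay 46.7 kb beyond the low end of the span and stood between 72.2 and 79.5 in all 6 libraries (−2.47, SE 2.75, adjusted p = 0.550). Numbers of regions were 10, 8 and 9 in f/f and 8, 11 and 4 in KO, and the mean difference turned from −1.33 to 0.50 without KO replicate 3.

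Smad1, the receptor-activated transducer, had the fewest regions for the length of its span (1.86 per 100 kb, against a median of 5.78 over all protein-coding genes). It had 3 regions in every library but KO replicate 3, which had 2. The start-site region, chr8:79397839-79399802, had a standing of 65.0, 60.9 and 62.6 in f/f and 63.5, 67.1 and 53.3 in KO, so that the groups overlapped (−1.55, SE 4.49, adjusted p = 0.831). The region of highest standing, chr8:79294458-79295511, lay 42.9 kb beyond the span in Mmaa and differed by 2.78 points (SE 1.92, adjusted p = 0.324).

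Smad6, the inhibitory Smad gene, was the most densely open of the 10, with 21 regions (12.4 per 100 kb) and 13 shared ones. The numbers with a peak were 16, 17 and 18 in f/f and 20, 20 and 13 in KO. Without KO replicate 3 the KO libraries were both above all f/f libraries (difference 3.0, exact permutation test, two-sided, p = 0.10, the smallest possible), which was seen at 4.73% of the protein-coding genes. The start-site region, chr9:64021704-64023297, had a shared-region standing of 57.3, 53.5 and 47.5 in f/f and 62.3, 66.3 and 74.1 in KO. All KO values were the higher ones, but the gain of 14.8 points (SE 4.67, adjusted p = 0.0484, range 0.0114 to 0.837) passed narrowly. It was lost with each library left out, at an adjusted p of 0.0538, 0.101 and 0.154 without f/f replicate 1, 2 or 3 and 0.0527, 0.113 and 0.0787 without KO replicate 1, 2 or 3, and without KO replicate 3 the gain was 7.64 points.

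Away from the start site, 2 Smad6 regions stood lower in KO. The strongest region of the locus, chr9:63941436-63943608, lay 9.5 kb past the end of the gene and stood at 88.9, 84.1 and 88.1 in f/f and 78.0, 71.2 and 76.4 in KO. The difference was −11.8 points (SE 2.50, adjusted p = 0.0105, range 0.00129 to 0.234), with an adjusted p of 0.0507 without f/f replicate 3. An intragenic region 41.6 kb after the start, chr9:63979918-63980915, stood at 41.3, 44.2 and 39.7 in f/f and 17.7, 26.1 and 25.3 in KO. It differed by −18.7 points (SE 4.22, adjusted p = 0.0136, range 0.00509 to 0.411), with 0.0524 without f/f replicate 2. In both regions every KO library lay under every f/f library. The other 10 shared regions of Smad6 were not called, with differences from −13.3 to 14.4 points.

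Grem1, whose product binds BMP ligands outside the cell, had 7, 5 and 7 regions in f/f and 6, 7 and 4 in KO. A region 6.5 kb before its start, chr2:113764745-113765487, stood at 15.5, 12.9 and 17.9 in f/f and 32.2, 34.5 and 24.2 in KO, a gain of 14.8 points (SE 3.93, adjusted p = 0.0260, range 0.00248 to 0.956). All KO libraries lay above all f/f libraries. Without f/f replicate 1, 2 or 3 the adjusted p was 0.0725, 0.10 and 0.0681, and without KO replicate 1 or 2 it was 0.0634 and 0.0828. The start-site region, chr2:113756861-113759161, was the widest of the 101 at 2301 bp and stood at 18.1, 24.5 and 20.8 in f/f and 21.5, 19.2 and 37.0 in KO (difference 4.79, SE 5.10, adjusted p = 0.531). The strongest region, chr2:113713108-113714024, lay in Fmn1, 34.7 kb beyond the span, and stood at 54.1, 44.4 and 55.6 in f/f and 48.9, 41.8 and 28.9 in KO (difference −11.5, SE 6.10, adjusted p = 0.202).

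**Figure D3:**
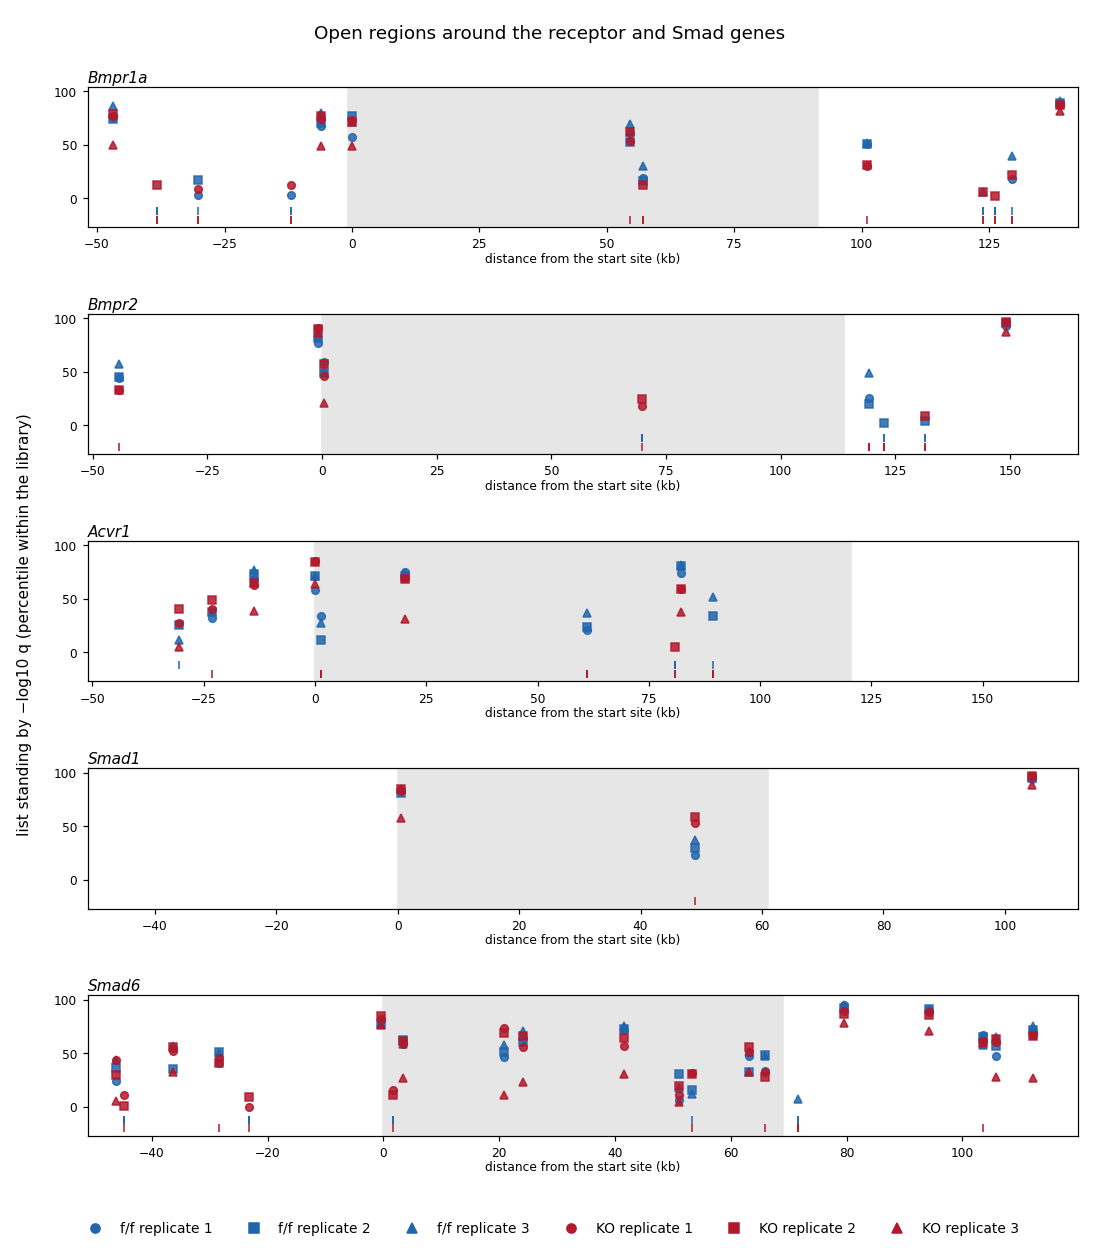
List standing by −log10 q (vertical axis, percentile) of each region at the receptor and Smad genes against the distance in kb of its centre from the start site (horizontal axis), with the gene span in grey, 1 point per library and ticks under 0 for f/f (upper row) and KO (lower row) libraries without a peak. At Acvr1 the start-site points of KO replicates 1 and 2 lie at 85.4 and 84.4, above the f/f points at 58.7 to 71.9, and those 82.2 kb inside the gene lie the other way.

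**Figure D4:**
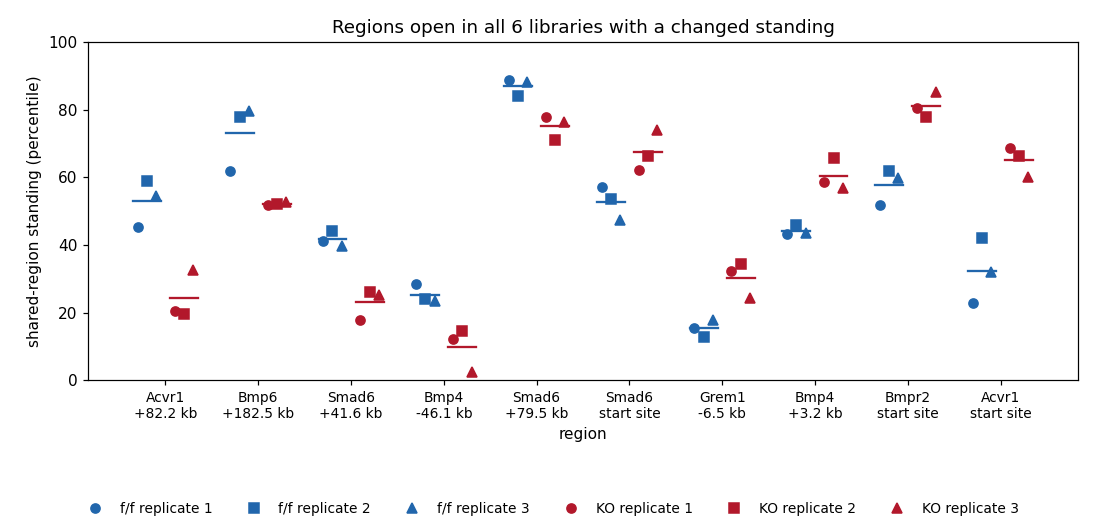
Shared-region standing by −log10 q (vertical axis, percentile among the regions open in all 6 libraries) of the 10 called regions (horizontal axis, ordered by the difference, named by gene and distance from its start), 1 point per library and a line at each group mean. The groups do not overlap in any of the 10, from −28.7 points inside Acvr1 to 32.7 points at its start site. The 10 were chosen by the test on these same standings, so the separation is not a further result.

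Several of the strongest differences lay in regions that had a peak in every library but KO replicate 3 and so could not enter the tests above. They were fitted over the 46989 regions of the 5 other libraries, with KO then resting on 2 libraries. In that fit 54 regions of the 10 genes entered and 16 were called by −log10 q, 9 lower and 7 higher, against 10.9% and 11.6% of all regions. Of these 16, 7 had no peak in KO replicate 3, and they were chosen for description after their values were seen.

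At Bmp7, the region at the high end of the span, chr2:172939516-172940874, had a −log10 q of 52.4, 62.8 and 106 in f/f and of 13.4 and 16.7 in KO replicates 1 and 2. Its 5-library standing was 61.2, 65.5 and 65.3 against 13.7 and 14.0, a difference of −50.2 points (SE 4.82, adjusted p = 0.000361), and by fold −49.8 points (adjusted p = 0.0146). The next region, 24.1 kb past that end at chr2:172964379-172965940, stood at 48.6, 40.9 and 49.1 against 1.99 and 2.44 (−44.0 points, SE 5.03, adjusted p = 0.000717, by fold −50.9 points, adjusted p = 0.0145). Both Bmp7 regions were thus in the lower part of the KO lists, with list standings of 10.5 to 31.4, and in the upper part of the f/f lists, with 55.1 to 78.1. Elsewhere within 5 Mb of Bmp7 the median difference was −0.867 and 9.58% of 167 regions were called lower.

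At Bmp6, 2 regions beyond the high end of the span were lower in KO, chr13:38533602-38534561 by 49.7 points (SE 5.64, adjusted p = 0.000691) and chr13:38535495-38536073 by 20.2 points (SE 5.29, adjusted p = 0.0239). The first stood at 67.6, 74.2 and 64.8 in f/f and 12.5 and 25.9 in KO. By fold neither passed (adjusted p = 0.0908 and 0.921), and 41.5% of the regions within 5 Mb were called lower in this fit. An intragenic Bmp6 region, chr13:38398524-38399118, was higher in KO against this surrounding, at 27.2, 16.3 and 26.3 in f/f and 38.6 and 48.1 in KO (20.1 points, SE 5.74, adjusted p = 0.0336).

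In this fit 2 regions of the Smad genes were newly called, both higher in KO. The only intragenic Smad1 region away from the start, chr8:79350166-79350744, stood at 8.86, 13.5 and 10.5 in f/f and 37.3 and 43.7 in KO, a gain of 29.6 points (SE 4.61, adjusted p = 0.00268), and by fold 39.4 points (adjusted p = 0.0207). A Smad6 region 20.9 kb inside the gene, chr9:64000779-64001561, had a weak peak in KO replicate 3 as well. Its shared-region standing was 12.1, 15.1 and 14.4 in f/f and 43.4, 34.3 and 7.0 in KO, so that KO replicate 3 lay below the f/f libraries and the difference over all 6 libraries did not pass (14.4 points, SE 7.96, adjusted p = 0.219). Without KO replicate 3 it was 27.1 points by −log10 q (adjusted p = 0.00602) and 30.8 points by fold (adjusted p = 0.0257). A region in the span of Mmrn2, 9.2 kb beyond Bmpr1a, chr14:34401098-34401879, stood at 34.9, 35.6 and 25.4 in f/f and 13.3 and 13.5 in KO (−18.6 points, SE 5.02, adjusted p = 0.0268, by fold −28.3 points, adjusted p = 0.0466). The 2 Bmp7 regions, these Smad1 and Smad6 regions and the Mmrn2 region were the 5 called by fold in this fit, 3 lower and 2 higher, against 2.93% and 3.40% of all regions. The 4 regions open in KO replicates 1 and 2 and in no other library, 1 at Bmpr2 and 3 at Smad6, were weak, with list standings of 0.0811 to 24.3.

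**Figure D5:**
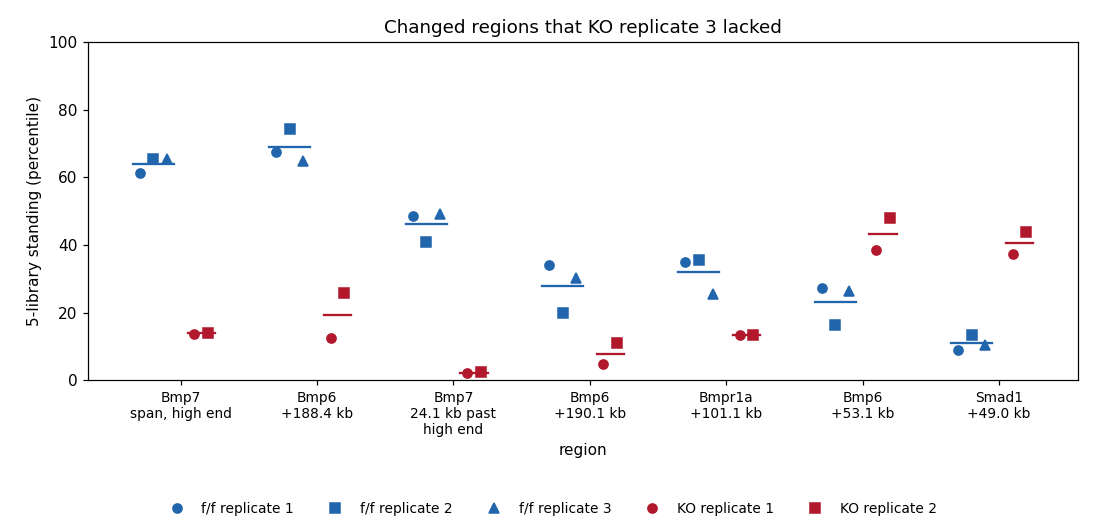
Standing by −log10 q among the regions open in the 5 libraries other than KO replicate 3 (vertical axis, percentile) of the 7 called regions without a peak in KO replicate 3 (horizontal axis, ordered by the difference), 1 point per library and a line at each group mean. Both Bmp7 regions lie at 40.9 to 65.5 in f/f and 1.99 to 14.0 in KO, and the Smad1 region lies the other way.

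The other genes of the pathway were examined as a list of 43 ligands, receptors, Smad regulators, antagonists and direct targets within their spans and 3 kb. Their 165 regions included 70 shared ones, of which 12 were called lower and 15 higher by −log10 q, against 11.3% and 12.6% of all shared regions. By fold 1 was called, against 0.630% of all shared regions lower and 0.754% higher. Without KO replicate 3, in a fit added after the data were seen, 12 of the same 70 were lower and 17 higher by −log10 q, against 12.4% and 13.1% of all. The 165 included 7 f/f-only regions, against 3.75% of all regions. They also included 1 KO-only region, against 0.179% of all, at Bmp1, a procollagen protease gene. By role, the 16 shared regions of receptors and co-receptors held 5 higher and 0 lower, the 13 of direct targets 4 higher and 0 lower, and the 20 of secreted antagonists 1 higher and 8 lower. Of those 8, 5 lay at Fstl1 and 1 at Chrd, both on chromosome 16, where 33.0% of the 1041 shared regions were called lower, and copy number was not analysed there either. At Acvr2b, a type II receptor gene, a region rose from a mean standing of 10.9 to 51.9 (41.0 points, SE 4.25, adjusted p = 0.000545). A region at Hey1, a target gene of BMP and Notch signalling, rose from 38.7 to 77.0 (adjusted p = 0.000735), and that at the start of Neo1, a co-receptor gene, from 57.2 to 84.2 (adjusted p = 0.00098). The start-site region of Smurf2, a ubiquitin ligase gene of the pathway, rose from 58.9 to 82.2 and a region of Smurf1, where 2 regions were called higher and 2 lower, from 15.5 to 47.7 (adjusted p = 0.00379 for each). The start-site region of Chrd, the chordin gene, fell from 88.3 to 66.7 (adjusted p = 0.000556), and the Fstl1 region with the smallest adjusted p from 83.4 to 56.6 (adjusted p = 0.00113). A region of Bmper, which encodes a BMP-binding protein, rose from 5.63 to 28.5 and was the one also called by fold (adjusted p = 0.00202 by −log10 q and 0.0390 by fold), whereas the other called region of that gene fell from 44.1 to 18.9 (adjusted p = 0.0371).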

How the data were processed

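ATAC-seq peak lists of 6 libraries were analysed, 3 of OB Fam20c f/f cells and 3 of KO cells, with groups and replicate numbers taken from the sample titles. The authors trimmed the reads, aligned them to mm10 with BWA and called peaks at a q-value of 0.05 (MACS2 2.1.2), per the paper's methods. The deposited peak lists are separate for each library. Each deposited list gives the authors' fold over the local background as a ratio, the −log10 p-value, the −log10 q-value and a score, which was not used here. Read numbers were not used, so a missing peak means below the authors' threshold and not closed chromatin, and the number of peaks limits the precision.

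Regions, standings and limma fits (mean-variance trend, adjusted p under 0.05) are described with the results. Numbers of regions per gene were compared by exact permutation over the 20 assignments of 3 of 6 libraries. The regions named at each gene were the start-site region, the strongest by mean list standing, every group-specific region and every called shared region, and up to 8 other pathway genes had the smallest adjusted p. The members, lists and rules were chosen with earlier results of these data known. Gene spans and promoters were those of RefSeq on GRCm38.p6, which shares its coordinates with mm10 and gave no strand for Bmp2 and Bmp7 in the tables used here. Alternatives were normal scores, library weights, list standings, a −log10 q of at least 5, equal numbers of peaks, an overlap of 50%, extensions of 3 and 100 kb, a replicate block and each library left out. The fits on the same regions and the overlap of gene numbers without KO replicate 3 were added after the data were seen. The scripts were tested on simulated data. Python 3.11.15, R 4.3.3 and limma 3.58.1 were used.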

Additional observations from a re-analysis of the deposited data

How the results depend on the processing

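The number of f/f-only regions at the 10 genes was 6, against 3.75% of all regions. With equal numbers of peaks per library it was 3 of 52, against 2.83% of all. Those 3 were other regions, at Bmp6 and Bmp7, and none of the 6 kept the pattern. With an extension of 3 kb it was 3 of 48. It was 14 where a peak in at least 2 of 3 libraries and none of the other group sufficed. The share over all regions was not computed for that rule. With each library left out it was 6 to 11, against 3.82% to 6.13% of all. The number of KO-only regions was 0, against 0.179% of all regions, and 1 with equal numbers of peaks, against 2.60%. It was 4 with at least 2 of 3 libraries, again with no share over all regions. With a library left out it was 0 to 4, against 0.218% to 2.93% of all. The number of shared regions called by −log10 q was 10, with 0 on list standings and 4 to 16 with a library left out. By fold the number was 0, with 5 under library weights, against 12.8% of all regions in that fit. It was 0 to 5 with a library left out, the 5 being without KO replicate 3, against 6.34% of all. In the 5-library fit over the same regions, which was added after the data were seen, it was 1, against 5.65%. Of the 10 called regions, 3 were called with every library left out, the start-site regions of Acvr1 and Bmpr2 and the intragenic Acvr1 region, and none changed direction in any alternative.

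The mean difference in the number of regions turned to −0.333 at Smad6 with a −log10 q of at least 5, to 0.667 at Acvr1 and 0.667 at Smad1 with equal numbers of peaks, and to 0.667 at Bmpr2 with an extension of 3 kb. With a library left out it ran from −0.50 to 3.0 at Smad6, from −3.0 to 0.50 at Bmpr1a and from −1.33 to 0.167 at Grem1. The number of genes without overlap was 1, and 2 without KO replicate 3 (Bmp4 lower, Smad6 higher). The stricter settings leave smaller numbers of regions, and the causes of these changes were not tested.

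The deviations of same-numbered libraries from their group means correlated at 0.0678, −0.105 and −0.124 by −log10 q. By fold they correlated at 0.0299, −0.393 and −0.480. With 3 libraries per group, such correlations cannot decide whether same-numbered libraries were prepared as pairs. With the replicate block, 7 of the 36 shared regions were called by −log10 q and 0 by fold. The mean differences in the numbers of regions per gene cannot change under this pairing, so they are no check. The exact test of 3 pairs cannot go below a p of 0.250. Of the 6 libraries, 1 correlated best with its own number.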
